A study of Mus musculus with 3 samples.

Results

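The myosin chains and myosin-binding proteins of the cardiac thick filament were examined in adult mouse hearts. The group was defined by name as *Myh6*, *Myh7*, *Myh7b*, *Myl2*, *Myl3*, *Mybpc3* and *Mylk3*, and every probe that the array annotation assigned to one of these 7 genes was taken. This gave 9 of the 41174 gene probes, for 6 of the 7 genes. *Myh7b* had no probe under that name and is not described further. Each of the 9 probes was printed once per array, was well above background on all 3 arrays in Cy3 and in Cy5 and passed the minimum signal, as did 29576 probes in all. RNA from whole hearts of C57/BL6 mice at 2 months of age was pooled from 2 hearts per channel and hybridized to 3 2-colour arrays (replicates 1 to 3). On every array Cy5 carried the RNA labelled Lrrc10-/-, from mice in which the cardiac-specific gene *Lrrc10* was deleted, and Cy3 carried the RNA labelled Lrrc10+/+ (WT), a heart reference pool. No array had the dyes exchanged, so dye and genotype cannot be told apart. The study's methods speak of independent biological replicates, but neither they nor the labels say whether a single WT pool was used throughout, and if so the test does not hold the spread between WT hearts. The comparison asks how transcripts of the contractile apparatus differ between hearts with and without *Lrrc10*, a gene studied for its part in dilated cardiomyopathy.

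Myosin is the motor of the sarcomere, built of a pair of heavy chains that each carry an essential and a regulatory light chain. In the mouse heart *Myh6* encodes the fast α heavy chain (α-MHC) of adult ventricles and *Myh7* the slow β heavy chain (β-MHC) of fetal ventricles and slow skeletal muscle, and a return of *Myh7* is a widely used sign of cardiac stress. *Myl2* and *Myl3* encode the ventricular regulatory and essential light chains, *Mybpc3* the cardiac myosin-binding protein C that restrains the myosin heads, and *Mylk3* the cardiac kinase that phosphorylates the regulatory light chain.

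The channels were first checked against the labels. The *Lrrc10* probe had processed signals of 476, 443 and 352 in Cy3 and Cy5 signals of 14283, 20828 and 17703 on replicates 1, 2 and 3. It was therefore brighter in the channel labelled Lrrc10-/- on every array, with a log2 ratio of Cy5 over Cy3 of 5.37 ± 0.41 (SD, n = 3; adjusted p = 2.51e-04, limma), which goes against the labels. Whether the probe lies inside the deleted part was not tested. All directions below are therefore given by channel, and the signs of every ratio would turn if the channels had been exchanged. Read by the labels, the direction measured here for *Myh7* is opposite to the one that the study draws from these arrays. With the channels exchanged it would be the same. This also holds for *Nppa*, *Tnnt1* and, as processed, *Mybpc2*, whose ratios are given below. By qRT-PCR the study further reported higher *Myh7*, *Nppa* and *Nppb* RNA in Lrrc10-/- hearts at a later age. By Western blot it reported more of the *Nppa* product ANF. The cause of the difference was not tested. Arrays correlated weakly across the 29576 tested probes, with Pearson's r of 0.0964 (replicates 1 and 2), -0.0371 (1 and 3) and -0.184 (2 and 3), and probes share arrays and are not independent. Of the cardiomyocyte markers examined, 9 of 9 were well above background throughout. Saturation, the top of the scanner's range, was flagged for 199 of the tested probes (0.673%) in some channel of some array, and for 6 of the 9 myosin probes. This flag decides which probes are called saturated or unsaturated below. A probe without it can still hold saturated pixels, as *Myh7* A_51_P143162 did.

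The probes themselves set what could be measured. Both *Myh7* probes cover nearly the same stretch, sharing a run of 55 of their 60 bases, so they are not independent measurements of the gene. The shared run holds the letters of the polyadenylation signal, AATAAA, and 30 bases of it are shown with these in capitals.
Myh7, shared by both probes: aggtggaagcagAATAAAgcaattttcctt
The pair of *Myh6* probes and the pair of *Myl3* probes each lie at separate positions, with no common run above 8 bases within a pair, and are shown whole because the values of the 2 probes of a gene are given apart below. They and the *Myl2* probe each hold at least 1 reading frame with no stop codon, and no base is capitalized.
Myh6 A_51_P512210: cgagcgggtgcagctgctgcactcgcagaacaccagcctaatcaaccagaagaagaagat
Myh6 A_52_P117510: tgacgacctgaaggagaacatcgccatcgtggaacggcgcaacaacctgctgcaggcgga
Myl3 A_51_P434910: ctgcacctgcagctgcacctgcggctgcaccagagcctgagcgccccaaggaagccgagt
Myl3 A_51_P177210: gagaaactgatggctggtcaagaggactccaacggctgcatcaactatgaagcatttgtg
Myl2 A_51_P392459: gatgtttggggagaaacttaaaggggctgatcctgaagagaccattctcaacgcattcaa
No gene probe on the array shared 25 or more bases in a row with a myosin probe, except the *Myh7* probes with each other. The content of G and C was lowest in the *Mylk3* probe, at 36.7%, and highest in the *Myl3* probe A_51_P434910, at 68.3%, with 45% in both *Myh7* probes and 55% and 60% in the *Myh6* probes.

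*Myh7*, the β-MHC gene, was the member that stood out, and on each of the 3 arrays both of its probes were brighter in Cy3 (labelled WT). Probe A_51_P143162 had processed signals of 96147, 283945 and 32609 in Cy3 on replicates 1, 2 and 3. The same probe had 21742, 26023 and 17535 in Cy5. The spread was mainly in Cy3, where replicate 2 was highest and replicate 3 lowest. The Cy3 signal exceeded Cy5 4.42-fold, 10.9-fold and 1.86-fold on the individual arrays, which gave a mean log2 ratio (Cy5 over Cy3) of -2.16 ± 1.28 (SD, n = 3). The overlapping probe A_52_P88033 had 105720, 220903 and 36207 in Cy3 against 26566, 37008 and 19666 in Cy5. In that probe the lowest Cy3 value, on replicate 3, lay just below the highest Cy5 value, on replicate 2, although Cy3 was the brighter channel on each array. Its Cy3 excess was measured as 3.98-fold, 5.97-fold and 1.84-fold, with a mean log2 ratio of -1.82 ± 0.86 (SD, n = 3), where the Cy3 spot of replicate 2 was saturated.

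**Figure D1:**
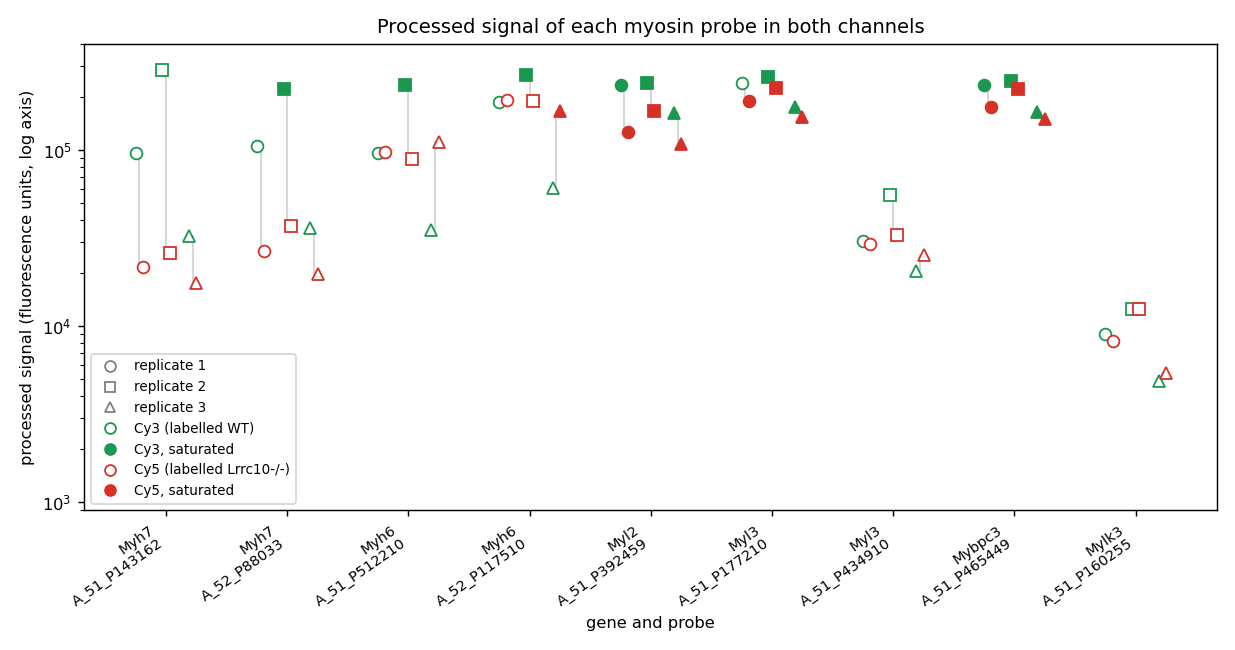
Processed signal of the 9 myosin probes in fluorescence units on a log axis, with Cy3 (labelled WT) in green and Cy5 (labelled Lrrc10-/-) in red, 1 marker shape per replicate, filled where the scanner flagged the spot as saturated. The Cy3 signals of both *Myh7* probes lie above Cy5 on every array, and those of *Myl2* and *Mybpc3* are saturated in both channels throughout.

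These mean ratios placed the *Myh7* probes 5th and 20th lowest among the 29576 tested probes, as measured with saturated Cy3 pixels on replicate 2. Neither passed limma after Benjamini-Hochberg adjustment over all tested probes, with adjusted p of 0.835 (A_51_P143162) and 0.648 (A_52_P88033) over the 3 arrays. The SD of their ratios was larger than that of 97.6% and 90.5% of the probes. Across all probes limma called 2 (0.00676%) brighter in Cy5 and 0 (0%) brighter in Cy3, while at an unadjusted p under 0.05 there were 456 (1.54%) in the direction of Cy5 and 451 (1.52%) in that of Cy3, the *Myh7* probes among them with p of 8.47e-04 and 4.07e-04. Each array was also left out in turn, which leaves 2 arrays per limma fit. Without replicate 1 the log2 ratios were -2.17 and -1.73 (adjusted p = 0.9999 for both). Without replicate 2 they were -1.52 and -1.44 (adjusted p = 0.8872 for both). Replicate 3 was the array with the smallest ratio, so a stronger result without it is built in. That fit gave -2.80 (adjusted p = 3.12e-10) and -2.29 (adjusted p = 1.84e-06), and it called 411 probes brighter in Cy5 and 134 in Cy3. With 3 arrays the exact test by flipping signs has a smallest two-sided p of 0.25. In whole-heart RNA, a difference in the number of cells with *Myh7* transcripts and a difference in *Myh7* RNA per cell cannot be told apart.

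A ratio below 0 on all 3 arrays was found in 3248 (11%) of the tested probes, so the sign alone was common. For comparison, 888 probes had no saturation flag and a mean signal within 2-fold of that of the *Myh7* probes. Of these, 49 (5.52%) had this sign on all arrays and 1 (0.113%) had a mean log2 ratio of -1 or lower. That probe was *Myh7* A_51_P143162 itself, which had no flag but some saturated Cy3 pixels on replicate 2. In the direction of Cy5, 118 (13.3%) had a ratio above 0 on all arrays and 1 (0.113%), for *Rgs2*, a mean of 1 or higher (1.10). Each *Myh7* probe also met a selection modelled on the study's, a 1.2-fold ratio or more in a common direction on every array, with a p under 0.05 that is taken here as the scanner software's p of each array, which 151 tested probes (0.511%) met in the direction of Cy3. The other myosin probe that met it, *Myl2*, was saturated.

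Saturation touched *Myh7* on a single array. Probe A_52_P88033 was saturated in Cy3 on replicate 2, so its Cy3 signal there is a floor. Probe A_51_P143162 was never flagged, but 15 of its Cy3 pixels (23.4%) were at the top of the range on replicate 2. On replicates 1 and 3 neither *Myh7* probe had a saturated pixel in either channel.

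*Myh6*, the α-MHC gene, gave no ratio of steady sign. Probe A_51_P512210 had Cy3 signals of 95888, 233678 and 34921 and Cy5 signals of 97624, 88843 and 110616 on replicates 1, 2 and 3. Those of probe A_52_P117510 were 188271, 265997 and 60622 (Cy3) and 191853, 190838 and 166162 (Cy5). In both probes Cy3 and Cy5 were nearly equal on replicate 1, Cy3 was brighter on replicate 2 and Cy5 was brighter on replicate 3. The log2 ratios were 0.03, -1.40 and 1.66 for the first probe, 0.10 ± 1.53 (SD, n = 3; adjusted p = 1.00, limma). For the second they were 0.03, -0.48 and 1.45, 0.33 ± 1.00 (SD, n = 3; adjusted p = 1.00). The mean is thus smaller than the spread between arrays, and it turned negative for A_51_P512210 under normexp with loess (-0.0057) and for both probes without replicate 3 (-0.68 and -0.23). On replicate 2 every pixel of both probes was saturated in Cy3, on replicate 3 every pixel of A_52_P117510 was saturated in Cy5, and on replicate 1 25% of its Cy5 pixels were, without a flag.

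**Figure D2:**
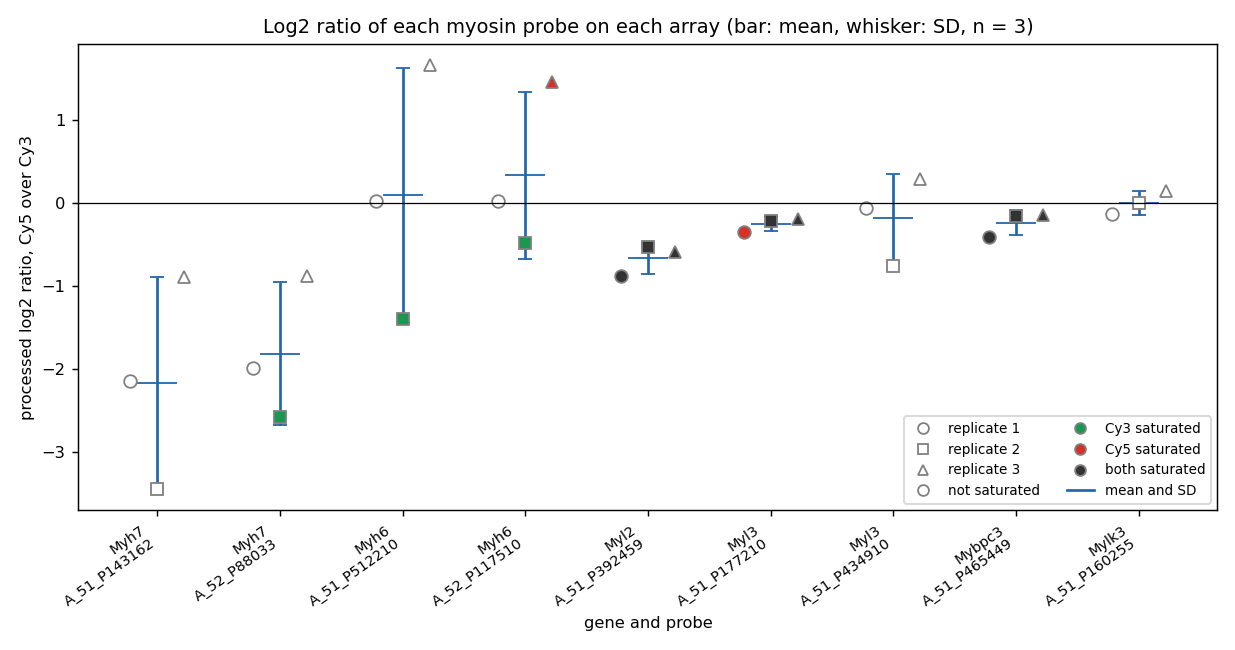
Log2 ratio of processed signals, Cy5 over Cy3, for the 9 myosin probes on each array, filled by the channel that was saturated, with the mean and SD of 3 arrays. Both *Myh7* probes lie between -3.45 and -0.88, the *Myh6* probes spread on both sides of 0, and *Mylk3* stays within 0.15 of 0.

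The ratio of *Myh7* was also set against that of *Myh6* on the same array. The difference of log2 ratios, *Myh7* A_51_P143162 minus *Myh6* A_51_P512210, was -2.17, -2.05 and -2.56 on replicates 1, 2 and 3 (-2.26 ± 0.26, SD, n = 3). With *Myh7* A_52_P88033 and *Myh6* A_52_P117510 it was -2.02, -2.10 and -2.34 (-2.15 ± 0.16). The crossed pairs gave -2.17, -2.97 and -2.35 (-2.50 ± 0.42) and -2.02, -1.18 and -2.54 (-1.91 ± 0.69). In every pair on every array the measured ratio of *Myh7* thus lay further toward Cy3 than that of *Myh6*, within an array where both genes share the same RNA pools, dyes and scan. The smallest gap, -1.18 on replicate 2, is between probes that were both saturated in Cy3 there and is no bound. Replicates 1 and 3 with *Myh6* A_51_P512210 are the comparisons free of any saturated pixel, and they gave -2.17 and -2.56 with A_51_P143162 and -2.02 and -2.54 with A_52_P88033. On replicate 2 both *Myh6* Cy3 signals are floors, so a true *Myh6* ratio there would be lower and the gap smaller than measured, apart from the saturated *Myh7* pixels, which act the other way. The SDs of the differences include replicate 2, so no steadiness of the gap is read from them.

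The difference was chosen after the values of the individual probes had been seen and is given without a test. It stayed negative with the processing: over 10 settings each, which included normexp with loess, unnormalized signals and each array left out (the signal minimums and the authors' table left it as it was), the means of the 4 pairs ranged from -2.45 to -2.11, from -2.66 to -2.17, from -2.28 to -1.60 and from -2.22 to -1.80. It shows an unequal ratio of the heavy chains between channels, not which of them was the same in both.

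**Figure D3:**
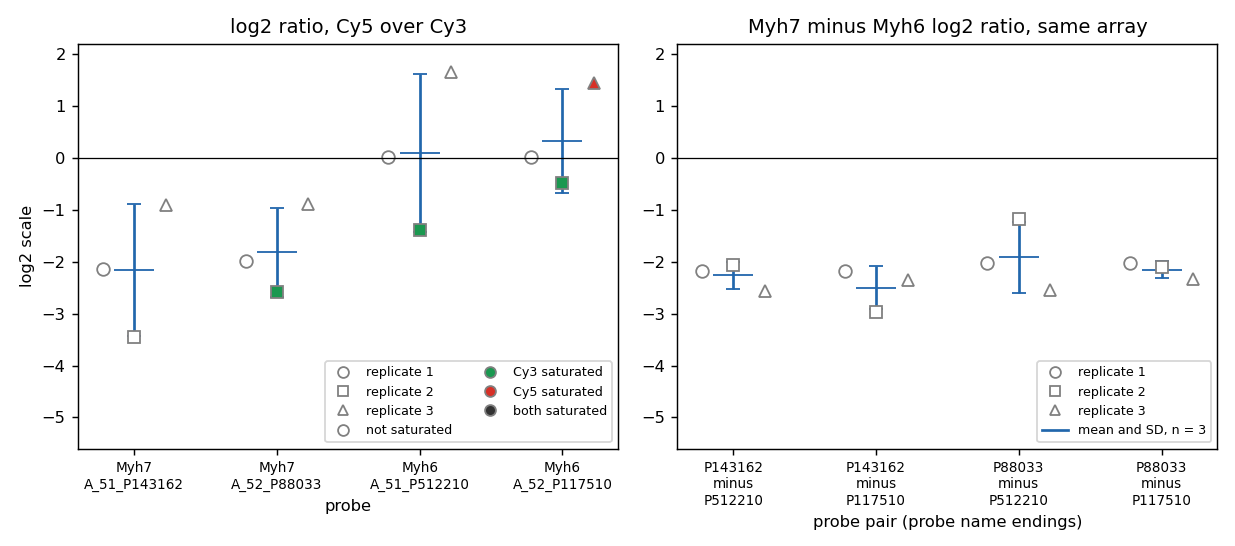
Left, log2 ratios (Cy5 over Cy3) of the *Myh7* and *Myh6* probes on each array; right, the *Myh7* minus *Myh6* difference of log2 ratios on the same array for the 4 probe pairs, both with mean and SD (n = 3) on a common log2 axis. The differences lie between -2.97 and -1.18, those of replicate 2 resting on saturated *Myh6* spots, and the ratios on the left run from -3.45 to 1.66.

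The ventricular light chains gave a ratio only through 1 probe. *Myl3* A_51_P434910, for the essential light chain, was never saturated, with Cy3 signals of 30626, 55682 and 20633 and Cy5 signals of 29322, 32825 and 25225 on replicates 1, 2 and 3. The channels overlapped, with Cy3 brighter on replicates 1 and 2 and Cy5 brighter on replicate 3. Its log2 ratio was -0.18 ± 0.54 (SD, n = 3; adjusted p = 1.00, limma), and it turned positive without detrending and dye normalization (0.30), under normexp with median centring (0.28) and without replicate 2 (0.11). Like both heavy chains, this probe was lowest on replicate 2 and highest on replicate 3. The other *Myl3* probe, A_51_P177210, had processed log2 ratios of -0.35, -0.21 and -0.19, but Cy5 was saturated on each of the 3 arrays and Cy3 on 2 of them, with 41.1% of its Cy3 pixels saturated on the remaining array. No fold is given for it, and the 2 *Myl3* probes cannot be compared.

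*Myl2*, the regulatory light chain, and *Mybpc3*, the myosin-binding protein C, were saturated in both channels of all 3 arrays, and no fold is given. Their processed log2 ratios, -0.88, -0.53 and -0.58 for *Myl2* and -0.41, -0.15 and -0.14 for *Mybpc3*, are all negative. The unnormalized ratios of the same spots were 0.00 for *Myl2* on each array and for *Mybpc3* on each array, with both channels at the top of the scanner's range, so the negative sign entered between the background-subtracted and the processed signals, a step that holds detrending and dye normalization. The same was seen in 36 tested probes (0.122%) that were saturated in both channels of all arrays, of which 36 had a negative processed ratio on all arrays, with medians of -0.73, -0.41 and -0.39 on replicates 1, 2 and 3. *Myl2* had an unadjusted limma p of 0.0106 (adjusted p = 1.00) on these values.

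That step, called normalization here, lowered the ratio of all 9 myosin probes on every array, by between 0.07 and 0.88 on the log2 scale. The lowering was not particular to them, as the median over all tested probes was 0.48 unnormalized and 0.00 processed. For *Myh7* A_51_P143162 normalization lowered the ratio by 0.35, 0.13 and 0.09, so the unnormalized ratios were -1.79, -3.32 and -0.81. Without normalization this probe had a mean of -1.98 and an adjusted p of 0.0372 (limma), a fit in which 48 probes were called brighter in Cy5 and 1 in Cy3.

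**Figure D4:**
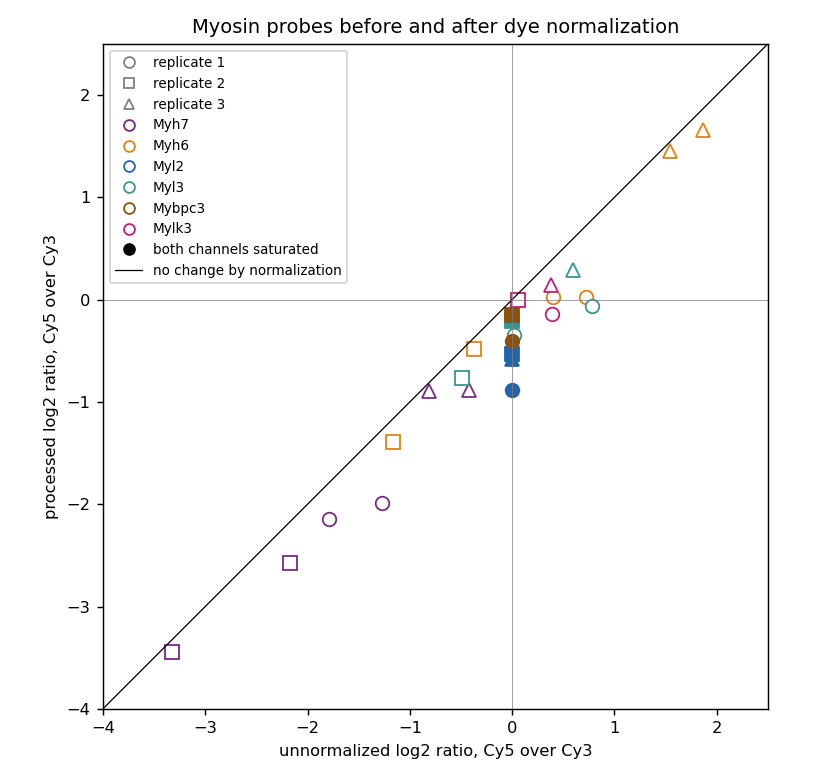
Processed against unnormalized log2 ratio (Cy5 over Cy3) of the 9 myosin probes on 3 arrays, with filled symbols where both channels were saturated and a line where normalization would change nothing. All points lie below the line, *Myh7* stays negative on both axes, and the saturated *Myl2* and *Mybpc3* spots stand at 0 before normalization and between -0.88 and -0.14 after it.

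*Mylk3*, the cardiac light chain kinase, was never saturated, and its ratio had the smallest SD among the 3 member probes without a saturation flag. Its Cy3 signals were 8999, 12494 and 4884 and its Cy5 signals 8192, 12467 and 5408. The channels were close on each array, and the log2 ratios of -0.14, -0.003 and 0.15 averaged 0.003 ± 0.14 (SD, n = 3; adjusted p = 1.00, limma). Its sign turned under normexp with loess (-0.17) and without replicate 3 (-0.07). The annotation of this probe names the gene without a RefSeq transcript that could be matched.

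Of all 9 myosin probes, 5 were brighter in Cy3 on all arrays, against 11% of the tested probes, 0 were brighter in Cy5 on all arrays, against 10%, and 4 had mixed signs. Of these 5, 4 were flagged as saturated in at least 1 channel and array. The other, *Myh7* A_51_P143162, had no flag, but 23.4% of its Cy3 pixels were saturated on replicate 2. With normexp and median centring, and unnormalized, 2 of the 9 were brighter in Cy3 on all arrays (against 11.6% and 0.953% of the tested probes), and these were the *Myh7* probes. Unnormalized, 2 others, *Mylk3* and the saturated *Mybpc3*, were brighter in Cy5 on all arrays, against 52.8% of the tested probes. Limma called 0 of the 9 probes, 3 had an unadjusted p under 0.05 (both *Myh7* probes and *Myl2*), and the methods' t-test with Benjamini-Hochberg adjustment called 0 of all tested probes.

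*Myh6* and *Myh7* are direct neighbours among the protein-coding genes of mouse chromosome 14 (GRCm38.p6, minus strand). The 250 bases before an annotated start of each gene (RefSeq, GRCm38.p6) are shown because regulators of these genes were measured, with the M-CAT motif of TEAD factors, CATTCC or its reverse complement GGAATG, in capitals.
Myh6, chr14:54966608-54966857: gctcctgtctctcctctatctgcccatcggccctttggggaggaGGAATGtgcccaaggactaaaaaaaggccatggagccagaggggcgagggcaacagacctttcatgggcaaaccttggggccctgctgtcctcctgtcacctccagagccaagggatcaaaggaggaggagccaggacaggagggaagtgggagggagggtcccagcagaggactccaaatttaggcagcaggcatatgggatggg
Myh7, chr14:54994627-54994876: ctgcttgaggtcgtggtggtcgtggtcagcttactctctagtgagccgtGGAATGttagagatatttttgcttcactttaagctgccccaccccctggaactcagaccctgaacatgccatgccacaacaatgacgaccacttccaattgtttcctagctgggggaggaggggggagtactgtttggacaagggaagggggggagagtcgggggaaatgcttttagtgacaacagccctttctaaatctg
The full window of 300 bases around each of these starts, 50 of them past the start, holds 1 match, which begins 206 bases before the start in *Myh6* and 201 before it in *Myh7*. The window of another annotated *Myh7* start, chr14:54994500-54994799, does not reach that match and holds 0. On either strand the motif occurs in 14.7% of 32851 promoter windows of 300 bases, and a match is a description of the sequence only. Each of *Myh6*, *Myh7* and *Myh7b* also hosts a microRNA within its gene. These were not measured on the arrays and are shown because they come from the same primary transcripts, with the seed, bases 2 to 8, in capitals.
mmu-miR-208a-3p, in Myh6, chr14:54949072-54949093: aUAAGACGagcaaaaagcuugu
mmu-miR-208b-3p, in Myh7, chr14:54975710-54975731: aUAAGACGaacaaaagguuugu
mmu-miR-499-5p, in Myh7b, chr2:155622893-155622913: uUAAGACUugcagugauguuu
The *Myh6* and *Myh7* microRNAs have the seed UAAGACG in common, and that of *Myh7b* is UAAGACU.

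Regulators of the heavy chain switch had a tested probe for 26 of 26 genes, and the brightest of each was used. Of these, 23 were well above background in both channels on all arrays, and *Tead1*, *Tead4* and *Dio3* were not. The *Tead1* probe was well above background on 2 arrays in each channel. The list had a median log2 ratio of -0.02 (0.07, -0.12 and 0.09 on replicates 1, 2 and 3), against -0.01 over all 20603 genes (0.003, 0.04 and -0.06), which are the values to set beside each list below. Limma called 0 of the 26, and 0 had an unadjusted p under 0.05. On all 3 arrays 5 were brighter in Cy5 (19.2%, against 9.47% of all genes) and 1 in Cy3 (3.85%, against 12.2%), counts that became 4 and 4 with normexp and loess (16.1% and 16.5% of all genes), 13 and 2 with median centring and 15 and 0 unnormalized. The genes as a whole moved toward Cy5 as well under the latter scalings. With median centring 42.6% of them had a positive ratio on every array and 11% a negative one, and unnormalized 52.3% and 1.02%, which are the shares to set beside the lists below. The thyroid hormone receptors, which activate *Myh6* and repress *Myh7* in the rodent heart, were on opposite sides, except that the mean of *Thra* turned to 0.03 with median centring and to 0.04 unnormalized. The ratios of *Thrb* were 0.32, 0.38 and 0.55 (0.42 ± 0.12, SD, n = 3). Those of *Thra* were -0.40, -0.09 and -0.25 (-0.25 ± 0.15). Neither passed limma (adjusted p = 1.00 for both). The other genes brighter in Cy5 on all arrays were *Tbx5* (0.34 ± 0.19), *Mef2a* (0.23 ± 0.02, but -0.04 with normexp and loess), *Tead4* (0.45 ± 0.34, but -0.005 with median centring and not well above background in Cy3 on 1 array) and *Dio3*. *Dio3*, which inactivates thyroid hormone, had the largest mean of the list at 0.91 ± 0.94 (-0.03 with median centring), but its probe was not well above background in Cy3 on any array. Next by size were *Hdac9*, a class II histone deacetylase, with -1.45, -0.69 and 0.46, and *Rcan1*, a calcineurin regulator, with -0.76, -0.73 and 0.04 (adjusted p = 1.00 for both), and the mean of *Rcan1* turned to 0.24 with median centring and 0.27 unnormalized.

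The other myosin heavy chains had tested probes for 9 of 11 genes, and limma called 0 of them, with 0 at an unadjusted p under 0.05. By array the median log2 ratio was 0.39, -0.62 and 0.32, and 7 of the 9 genes (77.8%, against 35.1% of all genes) were lowest on replicate 2, the order also seen in both probes of *Myh6* and *Myh7*. With the other scalings 7 or 8 of the 9 were lowest there, against 31.2% to 42.9% of all genes. Examples are *Myh9*, a non-muscle heavy chain, with 0.68, -1.19 and 0.52, *Myh14*, also non-muscle, with 0.44, -1.24 and 0.38, and *Myh11* of smooth muscle, with 0.39, -1.2 and 0.58. The dimmer probes of *Myh9* (-0.14, 0.03 and -0.20) and *Myh14* (0.41, 0.90 and -0.55) did not show this order. The largest means among unsaturated probes were those of embryonic *Myh3* (0.01, -1.98 and 0.57), *Myh1* (0.64, -0.10 and 0.25) and *Myh2* (0.17, 1.05 and -0.72), the latter pair being fast skeletal chains, where the mean of *Myh2* turned to -0.09 with normexp and loess. For fast skeletal *Myh4* and perinatal *Myh8* no pair of probes could be compared. The brightest was saturated in some channel (*Myh4* in Cy3 on 1 array and in Cy5 on 2, *Myh8* in Cy3 on 1 and in Cy5 on 3). The second probe was well above background in each channel on 2 arrays for *Myh4* and on 0 for *Myh8*. Myosin heavy chain genes are similar in sequence, and the bright probes are shown so that they can be compared.
Myh4 A_52_P602147: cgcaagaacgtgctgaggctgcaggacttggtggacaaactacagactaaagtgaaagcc
Myh8 A_51_P143296: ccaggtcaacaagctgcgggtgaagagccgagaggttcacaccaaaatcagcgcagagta
They share no more than 8 and 7 bases in a row with a probe of the cardiac chains, but whether they bind the *Myh6* or *Myh7* transcripts was not tested, and their values are uncertain as measures of *Myh4* and *Myh8*.

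The other myosin light chains, tested for 8 of 10 genes, went the opposite way across arrays. Their medians were -0.13, 0.64 and -0.13, and 6 of the 8 (75%, against 39.9% of all genes) were highest on replicate 2, and 5 or 6 of the 8 with the other scalings, against 28.5% to 37.5%. The atrial light chain genes *Myl7* (-0.21, 3.41 and -1.27) and *Myl4* (-0.12, 1.41 and 0.23) showed it most, and *Myl1*, the fast skeletal essential chain, had -0.14, 1.01 and -0.12. *Myl12a*, a non-muscle regulatory chain, was steady at -0.26, -0.36 and -0.31 (-0.31 ± 0.05, SD, n = 3; adjusted p = 1.00, limma), but its mean turned to 0.27 with median centring and to 0.30 unnormalized. Limma called 0 of the 8, 0 had an unadjusted p under 0.05, and 2, *Myl12a* and *Myl12b*, were brighter in Cy3 on all arrays (25%, against 12.2% of all genes), which held for 0 of the 8 with median centring or unnormalized. With these scalings 7 and 6 of the 8 were brighter in Cy5 on all arrays, against 42.6% and 52.3% of all genes.

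Kinases and phosphatase subunits acting on myosin light chains were tested for 10 of 11 genes and had medians of 0.18, 0.08 and 0.12. On all arrays 4 of the 10 were brighter in Cy5 (40%, against 9.47% of all genes) and 0 in Cy3. These were *Ppp1cb*, the catalytic subunit of myosin phosphatase (0.23, 0.38 and 0.26), *Rock2*, a kinase that inhibits it (0.12, 0.23 and 0.54), *Dapk3* and *Ppp1r12c*, and the means of these 4 stayed positive under the other scalings. The counts became 8 in Cy5 and 0 in Cy3 with median centring and unnormalized, where 42.6% and 52.3% of all genes had that sign in Cy5. *Mylk2*, the skeletal light chain kinase, had the largest mean of the list as processed but mixed signs (0.61, 1.14 and -0.85). With normexp and loess its mean was 0.03, and *Ppp1cb* had the largest mean with each of the other scalings. None was called by limma (adjusted p = 1.00), and 0 had an unadjusted p under 0.05.

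Among other thick filament and M-band genes, 13 of 14 were tested, with medians of -0.09, -0.52 and 0.07. On all arrays 4 were brighter in Cy3 (30.8%, against 12.2% of all genes) and 0 in Cy5, counts that became 1 and 5 with median centring (11% and 42.6% of all genes) and 0 and 5 unnormalized (1.02% and 52.3%). *Mybpc2*, the fast skeletal myosin-binding protein C, had -0.39, -0.94 and -0.40 (-0.58 ± 0.31, SD, n = 3; unadjusted p = 0.0191, adjusted p = 1.00, limma), but 0.06 with median centring and 0.07 unnormalized. *Myom2*, an M-band protein, had -0.52, -0.52 and -0.35 but was saturated in Cy5 on all 3 arrays, and its mean turned to 0.20 with median centring and 0.21 unnormalized. *Myom3* and *Mybph* were the others, and *Mybph* was well above background on only 1 array in each channel. *Mybphl*, a myosin-binding protein H-like gene of atria, had 0.51, 1.2 and -0.42, and *Obsl1* had 0.01, -1.21 and 0.06. Titin (*Ttn*), the molecular ruler of the sarcomere, had 0.63, -0.37 and 0.41. Limma called 0 of the 13, and 2, *Mybpc2* and the saturated *Myom2*, had an unadjusted p under 0.05 in the direction of Cy3, as did 365 of all 20603 genes.

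Genes for myosin folding and assembly were tested for 7 of 7, with medians of 0.11, -0.54 and 0.09. Limma called 0, and 0 had an unadjusted p under 0.05. The chaperone genes *Hsp90aa1* (0.51, -0.57 and 0.63), *Hsp90ab1* (-0.01, -0.54 and 0.05) and *Unc45a* (0.12, -0.55 and -0.12) had the largest means and mixed signs, and the means of *Hsp90ab1* and *Unc45a* turned from -0.17 and -0.18 to 0.14 and 0.15 with median centring and 0.15 and 0.18 unnormalized. *Unc45b*, the muscle myosin chaperone, had 0.13, -0.70 and 0.39, and *Smyd1*, a muscle methyltransferase needed for thick filament assembly, -0.31, 0.29 and 0.07.

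**Figure D5:**
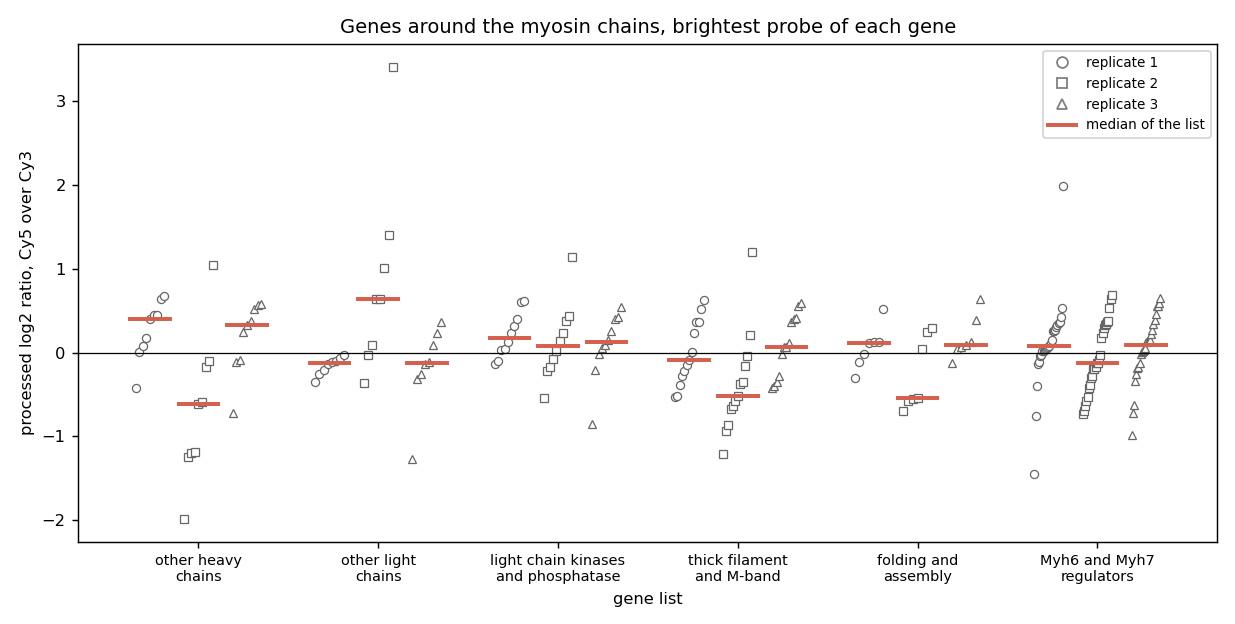
Log2 ratio (Cy5 over Cy3) of the genes around the myosin chains on each array, by the brightest probe of each gene, with the median of each list as a red bar. Replicate 2 has the lowest median in the heavy chain list (-0.62) and the highest in the light chain list (0.64), and no list keeps a large shift of one sign on all 3 arrays.

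The 5 genes whose 3 ratios lay nearest to those of the brightest *Myh7* probe, by Euclidean distance among 25565 unsaturated probes well above background, were *Plekhh1* (distance 0.37), *Pnpla3* (0.44), ENSMUSG00000057802 (0.60), *Wdfy1* (0.76) and *Tmem171* (0.88). *Plekhh1* had log2 ratios of -1.85, -2.36 and -1.14, and *Pnpla3* -2.20, -2.28 and -1.13. The *Myh7* probe was itself saturated in Cy3 on replicate 2, so distances and order rest on a bound there. With 3 arrays a likeness of this kind is a description only.

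*Myh7* is also expressed in slow skeletal muscle and atria, so markers of other tissues were read beside it. Of the other slow skeletal markers, *Tnnt1* had log2 ratios of -0.61, -0.80 and -0.41, *Tnni1* and *Myl6b* did not keep a sign, and 4 of 4 slow markers, *Myh7* included, were well above background. Summed processed signals of the slow list were 114800, 232100 and 42470 in Cy3 and 32790, 44720 and 24890 in Cy5, of which *Myh7* A_52_P88033, with the signals given above, made up most in either channel. Of the fast skeletal markers, 9 of 12 were well above background and *Myh1*, *Actn3* and *Myog* were not. The median ratio of the 9, which include the partly saturated *Myh4* probe, was -0.10, 0.09 and -0.12 per array. Of the 10 tested, 2 were brighter in Cy3 on all arrays (20%, against 12.2% of all genes) and 0 in Cy5. These were *Pvalb* (-0.62, -0.60 and -1.32) and *Tnnc2* (-0.32, -0.30 and -0.02). Of 8 atrial markers 6 were well above background and *Bmp10* and *Dkk3* were not. Their sums were 108800, 126000 and 79100 in Cy3 against 61770, 88190 and 45480 in Cy5, mainly from *Nppa*, whereas the median ratios of the 6 were -0.02, 1.30 and -0.62. Within this list *Nppa* was brighter in Cy3 on all arrays (-0.89, -0.61 and -0.82), whereas *Myl7* and *Sln* were brighter in Cy5 on replicate 2, by 3.41 and 3.69, where *Myh7* was furthest toward Cy3. Smooth muscle markers had medians of 0.17, -0.46 and 0.49 (6 of 6 well above background), and of 5 fat markers 1, *Cfd*, was well above background throughout. The 2 tested red blood cell markers, 1 of them saturated in Cy5 on 2 arrays, had medians of 0.79, 1.00 and -0.17, so they were toward Cy5 on replicates 1 and 2, where *Myh7* was furthest toward Cy3. The part of these tissues in the *Myh7* and *Myh6* ratios was not tested.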

How the data were processed

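For 3 2-colour Agilent whole mouse genome arrays the authors deposited scanner files made with Agilent Feature Extraction 9.1.3.1. Mean and background intensity values were deposited without normalization. Processed intensity values, as deposited, were background-subtracted and detrended, and the dyes were normalized array by array (linear, then lowess). The deposited log10 ratio is Cy5 over Cy3 of the processed signals, and each deposited p-value is for 1 spot's ratio within an array. The authors' table of log10 ratios over all samples equalled these in 130136 of 130137 values (tolerance 1e-06), with 1 missing. In the file of replicate 1 a lost line end was restored.

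Ratios were put on the log2 scale, outlier spots (11, 21 and 4 of 43379 gene spots) were dropped, spots of a probe were averaged and saturated spots were kept. A geometric mean processed signal of at least 20, taken over both channels and all arrays together, was required. The mean ratio was tested against 0 with limma 3.58.1 (R 4.3.3; eBayes with an intensity trend; Benjamini-Hochberg, threshold 0.05) over all tested probes, after tests on simulated data. No depth applies to arrays, and their number, 3, limits the precision. The arrays lie on a single slide, so slide is no batch here. The brightest probe stood for a gene in lists. Named genes were all member probes, *Lrrc10*, up to 3 unsaturated genes per list with the largest mean, and the 5 genes nearest to *Myh7*. Other genes named are examples chosen after their values were seen. RefSeq accessions named 24844 probes, and the array's annotation, which can be old, named the others. Members, lists and tests were chosen with earlier results of these data known. Alternatives were normexp (offset 50) with loess or median centring, unnormalized signals, other signal minimums (none, 100), saturated spots left out, no intensity trend, the methods' t-test, arrays left out and the authors' ratio table.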

Additional observations from a re-analysis of the deposited data

How the results depend on the processing

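Both *Myh7* probes kept a negative ratio in all 12 settings of each, from -2.80 to -1.52 (A_51_P143162) and from -2.29 to -1.29 (brightest probe, A_52_P88033). The signal minimums, the fit with no intensity trend, the t-test and the authors' table left these means as they were, so their sign could not turn there. With 1 array left out the brightest probe ranged from -2.29 to -1.44 and passed the threshold without replicate 3 (adjusted p = 1.84e-06); A_51_P143162 passed without replicate 3 (-2.80, adjusted p = 3.12e-10) and unnormalized (-1.98, adjusted p = 0.0372). No other member passed in any setting. Signs turned for *Myh6* A_51_P512210 (-0.0057 with normexp and loess, -0.68 without replicate 3), *Myh6* A_52_P117510 (-0.23 without replicate 3), *Mylk3* (-0.17 with normexp and loess, -0.069 without replicate 3), *Myl3* A_51_P434910 (0.28 with normexp and median centring, 0.30 unnormalized, 0.11 without replicate 2) and, unnormalized, *Mybpc3* (0.000733) and *Myl3* A_51_P177210 (0.0052), both at the top of the scanner's range. With 1 array left out the ranges were -0.68 to 0.84 and -0.23 to 0.74 for the *Myh6* probes, -0.41 to 0.11 for *Myl3* A_51_P434910 and -0.069 to 0.072 for *Mylk3*. The causes were not tested.

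The number of probes called by limma brighter in Cy5 (2) became 1 with normexp and loess, 48 unnormalized (and 1 in Cy3), 0 with no signal filter, 1 at a signal of at least 100, 0 by the t-test, and 0 to 411 with 1 array left out (0 to 134 in Cy3). Probes selected on all arrays (120 in Cy5, 151 in Cy3) became 507 and 577 with no p criterion, 53 and 68 at a ratio of 1.5, 60 and 76 with normexp and loess, 81 and 9 with median centring, 145 and 35 unnormalized, and 574 to 1169 and 438 to 665 with 1 array left out. The median over all probes moved from 0.00 to 0.16 with median centring and 0.48 unnormalized, and list medians moved with it: kinases and phosphatase 0.46 and 0.66, folding 0.58 and 0.59, regulators 0.33 and 0.52, and light chains 0.64 unnormalized. The kinase list ranged from 0.079 to 0.17 with 1 array left out. The member genes' median (-0.24) was -0.49 with normexp and loess, -0.0066 with median centring, 0.0030 unnormalized and -0.088 without saturated spots. The *Myh7* minus *Myh6* differences stayed negative in all settings. Each ratio already pairs the channels of an array, and no other replicate block could be set because the samples form a single group. Saturation at the top and the spread between 3 arrays limit what these values can show.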
